A study of Mus musculus with 12 samples.

Results

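A20, encoded by Tnfaip3, and the proteins that work with it were followed at the transcript level in mouse bone marrow-derived macrophages, cells grown from marrow progenitors in macrophage colony-stimulating factor. The members were the 9 genes Tnfaip3, Tnip1, Tnip2, Tnip3, Tax1bp1, Itch, Rnf11, Cyld and Otulin, found on the array through the transcript accessions of their probes. All 9 were on the array, with 14 probes in all, among 20887 genes named there and 13116 genes tested. The 4 groups, with 3 one-colour arrays each, were ERRα-/- macrophages with lipopolysaccharide (LPS, 100 ng/mL), ERRα+/+ macrophages with LPS, ERRα-/- macrophages with phosphate-buffered saline (PBS) as the solvent, and ERRα+/+ macrophages with PBS. Per the labels, all the mice were C57BL6 males, 6 to 8 weeks of age. ERRα is an orphan nuclear receptor encoded by Esrra, and LPS is a bacterial outer-membrane component that activates macrophages through the receptor TLR4. The time under LPS, the part of Esrra removed in the mutant and whether arrays came from separate mice are not given in the sources used here, so p-values measure the spread between these arrays, which may be technical.

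A20 is a ubiquitin-editing enzyme: it removes activating ubiquitin chains from signalling proteins below TLR4 and the TNF receptor, and it also acts as a ubiquitin ligase that marks such proteins for degradation. Its transcription is switched on by NF-kB, so A20 closes a negative feedback loop, and mice without it develop severe inflammation. Tnip1, Tnip2 and Tnip3 encode the ABIN proteins, which bind ubiquitin and A20. TAX1BP1, an adaptor and autophagy receptor, the ligase ITCH and the RING protein RNF11 assemble with A20 into an editing complex. CYLD and OTULIN are separate deubiquitinases that trim chains in the same signalling complexes, with OTULIN specific for linear chains. As far as is known of the study, it asked whether ERRα bears on inflammation in macrophages through A20, and the genotype comparison addresses that question for the transcript.

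RefSeq promoter windows on GRCm38.p6, 250 bases before to 50 bases after the annotated start, were given for 7 of the 9 genes, 9 windows in all. Itch and Rnf11 had none. The windows below belong to the 3 members with the largest LPS responses and to Cyld, the member called lower, and show where matches to the NF-kB consensus lie. Each is printed 5′ to 3′ on the strand of the gene, with matches in capitals. They lie at chr10:19015361-19015660 (minus strand, Tnfaip3), chr11:54962891-54963190 (minus strand, Tnip1), chr6:65590148-65590447 (plus strand, Tnip3) and chr8:88696778-88697077 (plus strand, Cyld).
Tnfaip3: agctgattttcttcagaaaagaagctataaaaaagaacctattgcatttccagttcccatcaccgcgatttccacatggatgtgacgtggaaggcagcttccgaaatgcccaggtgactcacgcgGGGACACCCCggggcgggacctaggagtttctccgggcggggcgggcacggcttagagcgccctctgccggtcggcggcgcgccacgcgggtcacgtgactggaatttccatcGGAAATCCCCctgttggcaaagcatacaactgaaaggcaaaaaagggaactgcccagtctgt
Tnip1: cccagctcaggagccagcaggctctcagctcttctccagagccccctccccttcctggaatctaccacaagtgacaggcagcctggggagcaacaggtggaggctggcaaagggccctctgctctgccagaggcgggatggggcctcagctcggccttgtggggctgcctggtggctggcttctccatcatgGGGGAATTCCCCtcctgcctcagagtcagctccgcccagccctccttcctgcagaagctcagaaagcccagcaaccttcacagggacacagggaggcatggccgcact
Tnip3: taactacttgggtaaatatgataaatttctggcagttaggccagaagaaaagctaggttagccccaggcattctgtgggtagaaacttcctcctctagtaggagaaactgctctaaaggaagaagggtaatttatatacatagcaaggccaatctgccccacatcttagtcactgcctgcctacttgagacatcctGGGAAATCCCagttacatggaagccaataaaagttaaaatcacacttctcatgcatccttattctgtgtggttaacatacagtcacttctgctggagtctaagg
Cyld: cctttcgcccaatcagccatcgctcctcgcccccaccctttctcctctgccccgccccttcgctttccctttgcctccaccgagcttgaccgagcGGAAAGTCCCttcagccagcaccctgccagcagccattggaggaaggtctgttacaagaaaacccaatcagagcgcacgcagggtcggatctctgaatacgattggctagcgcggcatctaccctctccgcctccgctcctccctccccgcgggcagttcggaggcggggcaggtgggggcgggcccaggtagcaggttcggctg
The NF-kB consensus, searched on both strands with overlapping matches allowed, was found in 4.51% of all 32851 windows. Tnfaip3 held 2 matches, which began 125 and 12 bases before the start, and its second annotated start held none. Tnip1 held 3 overlapping matches in a single palindromic stretch that began 58 bases before the start. The matches of Tnip3 and Cyld began 54 and 155 bases before the start, and 1 of the 2 Tax1bp1 windows held a match past its start. The windows of Tnip2 and Otulin held no such letters. The ERR response element TNAAGGTCA, found in 1.28% of all windows, and its half-site AAGGTCA, which is part of it and was found in 4.72%, were in none of the 9 member windows. A match is a description of the letters and shows no binding, and these windows cover only the bases next to the start.

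The arrays measured the members well. All 14 member probes were well above background on all 12 arrays, while 45.4% to 56.7% of all probes were, and no spot was saturated. Levels are log2 processed signals relative to the 75th percentile of the array, so that 0 is the level of that percentile, and levels of different probes cannot be compared. Replicate 1 of each group lay on slide 1 and replicates 2 and 3 on slide 2, so several LPS and genotype differences are also given within a slide. Repeat spots of the same probe varied by 3.79% to 4.80% on 10 arrays, but by 12.9% and 8.24% on ERRα+/+ PBS replicates 2 and 3. Of the macrophage markers, 12 of the 13 on the array were well above background in every group, and Cd163 was not. The Esrra probe read 0.15 to 2.48 in ERRα-/- PBS arrays, against 4.39 to 4.68 in ERRα+/+ PBS arrays, and 3.83 to 4.40 in ERRα-/- LPS arrays, against 5.87 to 6.36 in ERRα+/+ LPS arrays. ERRα-/- PBS replicate 1, at 2.48, stood apart from the other 2 arrays of its group.

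By each gene's brightest probe over the 12 arrays, Tnfaip3 had the largest LPS response of the members in both genotypes, and Tnip1, Tnip3 and Rnf11 rose in both as well. In ERRα-/- macrophages 6 of the 9 members were called higher under LPS and 1, Cyld, was called lower. In ERRα+/+ macrophages 4 were called higher and none lower, with 5 members at an unadjusted p under 0.05, as were 53.4% of all genes. Calls were made by limma at an adjusted p under 0.05 over all genes tested. By the same rule 25.1% of all genes were called higher and 25.3% lower in ERRα-/- cells, and 22.2% were called higher and 23.7% lower in ERRα+/+ cells. The median log2 difference of the members was 0.73 in ERRα-/- and 0.98 in ERRα+/+ cells, and that of all genes was 0.05 in ERRα-/- and 0.02 in ERRα+/+ cells. The LPS arrays lay wholly above the PBS arrays for 6 members and wholly below for 2 in ERRα-/- cells, where 30% of all genes lay above and 29.6% below. In ERRα+/+ cells they lay wholly above for 4 members and below for none, where 26.6% of all genes lay above and 27.4% below.

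Tnfaip3 read 6.16, 8.36 and 8.36 in ERRα-/- LPS arrays, against 2.94, 3.30 and 3.23 in ERRα-/- PBS arrays. It read 6.07, 7.91 and 7.98 in ERRα+/+ LPS arrays, against 2.81, 3.03 and 3.19 in ERRα+/+ PBS arrays. Every LPS array lay far above every PBS array, and in each genotype the slide 1 array had the lowest LPS level. The log2 difference was 4.47 ± 0.61 (SE, n = 3 arrays a group) in ERRα-/- cells, a 22.2-fold rise (adjusted p = 0.000252), and 4.31 ± 0.61 in ERRα+/+ cells, a 19.9-fold rise (adjusted p = 0.000332). On slide 1 the difference was 3.22 in ERRα-/- and 3.26 in ERRα+/+ cells, and on slide 2 it was 5.09 in ERRα-/- and 4.84 in ERRα+/+ cells. The group means were, from high to low, 7.63 ± 1.27 (SD, n = 3) in ERRα-/- LPS, 7.32 ± 1.08 in ERRα+/+ LPS, 3.16 ± 0.19 in ERRα-/- PBS and 3.01 ± 0.19 in ERRα+/+ PBS. Only the step between the LPS and PBS groups in that order was larger than the spread of its neighbours.

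**Figure D1:**
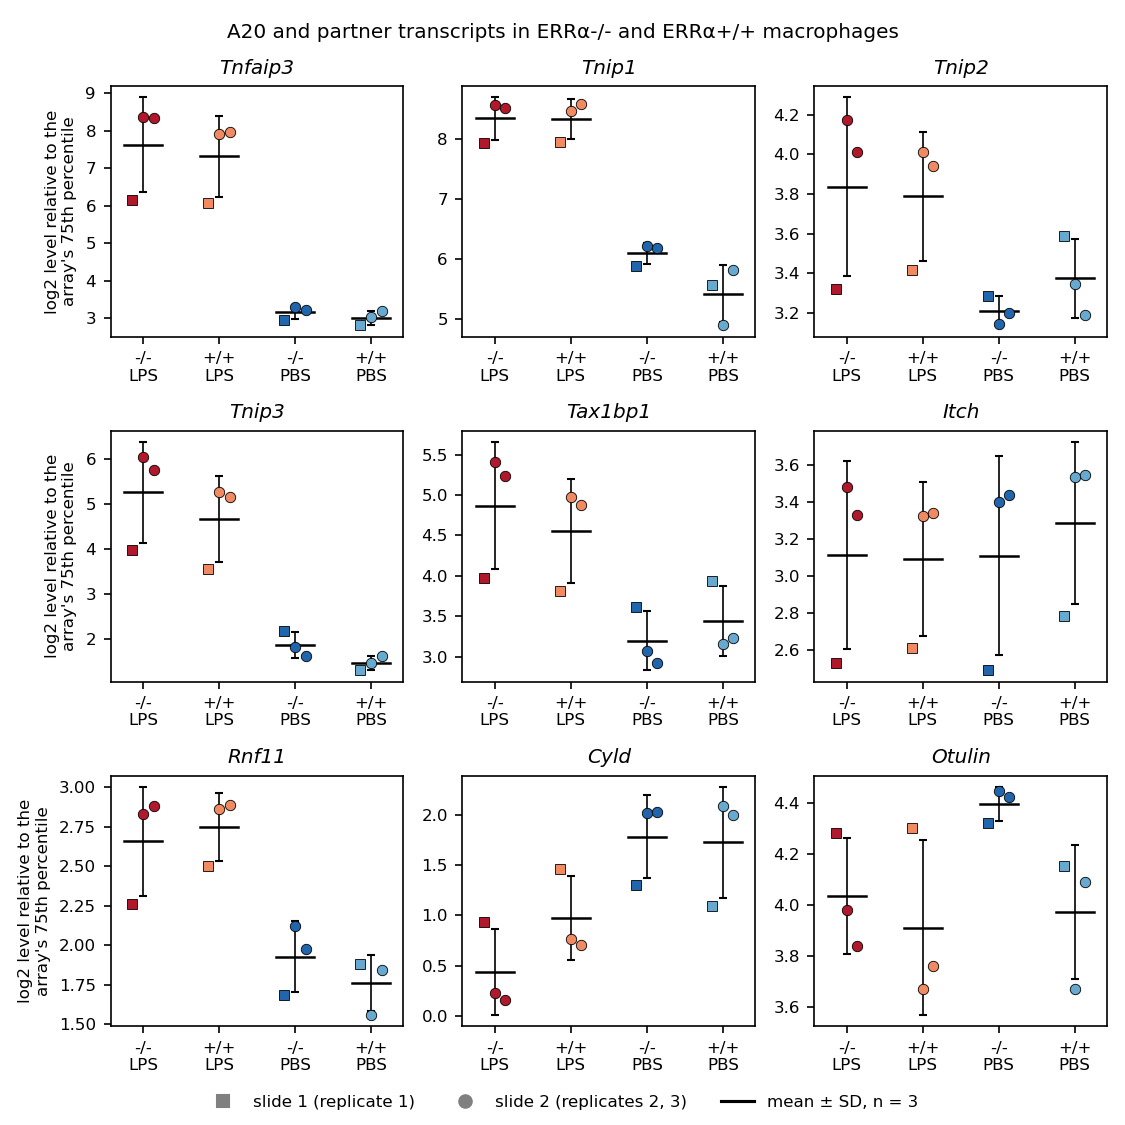
Log2 level of each member's main probe (y axis, relative to the array's 75th percentile, scale differing between panels) in the 4 groups, with squares for slide 1, circles for slide 2 and bars for the mean ± SD of 3 arrays. Tnfaip3 lay between 6.07 and 8.36 in LPS arrays and between 2.81 and 3.30 in PBS arrays, whereas the Itch groups overlapped.

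Among the ABIN genes, Tnip1 read 7.93, 8.57 and 8.51 in ERRα-/- LPS arrays, against 5.89, 6.21 and 6.18 in ERRα-/- PBS arrays. In ERRα+/+ cells it read 7.94, 8.46 and 8.57 with LPS, against 5.56, 4.90 and 5.81 with PBS. The LPS and PBS arrays did not overlap in either genotype. Tnip1 rose by a log2 difference of 2.24 ± 0.27 in ERRα-/- cells (adjusted p = 0.000131) and 2.90 ± 0.27 in ERRα+/+ cells (adjusted p = 2.67e-05). Its second probe gave 2.32 ± 0.22 in ERRα-/- and 2.65 ± 0.22 in ERRα+/+ cells.

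Tnip3, the ABIN gene with the largest response, read 3.98, 6.04 and 5.76 in ERRα-/- LPS arrays, against 2.18, 1.82 and 1.61 in ERRα-/- PBS arrays. In ERRα+/+ cells it read 3.56, 5.27 and 5.16 with LPS, against 1.31, 1.46 and 1.63 with PBS. As for Tnfaip3, the slide 1 array was the lowest of each LPS group, still well above every PBS array. The log2 difference was 3.39 ± 0.55 in ERRα-/- cells (10.5-fold, adjusted p = 0.000656) and 3.20 ± 0.55 in ERRα+/+ cells (9.17-fold, adjusted p = 0.00102), and the second, dimmer probe gave 4.30 ± 0.71 in ERRα-/- and 4.16 ± 0.71 in ERRα+/+ cells, close to Tnfaip3. Within slide 2 in ERRα-/- cells that probe rose by 5.27, above the 5.09 of Tnfaip3. Tnip2 changed much less: it read 3.32, 4.17 and 4.01 in ERRα-/- LPS arrays, against 3.29, 3.14 and 3.20 in ERRα-/- PBS arrays, so that the slide 1 LPS array sat just above the PBS arrays. Its log2 difference of 0.63 ± 0.24 in ERRα-/- cells was called by a narrow margin (adjusted p = 0.0494). The call ended when any of 10 of the 12 arrays was left out singly (the highest adjusted p, 0.186, was that without ERRα-/- LPS replicate 2), and the second Tnip2 probe was not called (0.63 ± 0.28, adjusted p = 0.0847). It also ended with quantile normalization (0.32, adjusted p = 0.202), normexp background (0.52, adjusted p = 0.0902), no filter on dim probes (adjusted p = 0.101), the mean of both probes (adjusted p = 0.0616) and each probe tested on its own (adjusted p = 0.0503). In ERRα+/+ cells Tnip2 read 3.41, 4.01 and 3.94 with LPS, against 3.59, 3.35 and 3.19 with PBS, overlapping groups with a difference of 0.41 ± 0.24 (adjusted p = 0.18). It was called there within slide 2 (0.71, adjusted p = 0.00068) and with array weights (0.73, adjusted p = 0.000115), while slide 1 gave -0.17. The genotypes' Tnip2 responses differed by 0.21 ± 0.34 (-0.54 to 0.96), which was not called.

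Of the genes of the A20 editing complex, Rnf11 was called higher in both genotypes, Tax1bp1 was called in ERRα-/- cells and just missed the threshold in ERRα+/+ cells, and Itch was called in neither. Rnf11 read 2.26, 2.83 and 2.88 in ERRα-/- LPS arrays, against 1.68, 2.12 and 1.98 in ERRα-/- PBS arrays. It read 2.50, 2.86 and 2.89 in ERRα+/+ LPS arrays, against 1.88, 1.56 and 1.85 in ERRα+/+ PBS arrays. The LPS arrays lay above the PBS arrays in both genotypes, by a log2 difference of 0.73 ± 0.21 in ERRα-/- cells (adjusted p = 0.0139) and 0.98 ± 0.21 in ERRα+/+ cells (adjusted p = 0.00329). The second Rnf11 probe rose by 0.66 ± 0.16 in ERRα-/- and 0.67 ± 0.16 in ERRα+/+ cells. The main probe's call in ERRα-/- cells ended without ERRα-/- PBS replicate 1 (adjusted p = 0.0504), ERRα-/- LPS replicate 2 (0.0577) or ERRα-/- LPS replicate 3 (0.0599).

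Tax1bp1 read 3.97, 5.41 and 5.23 in ERRα-/- LPS arrays, against 3.61, 3.07 and 2.92 in ERRα-/- PBS arrays, and 3.81, 4.98 and 4.88 in ERRα+/+ LPS arrays, against 3.93, 3.15 and 3.23 in ERRα+/+ PBS arrays. The slide 2 arrays were parted widely by LPS, whereas on slide 1 the LPS array stood only slightly above the PBS array in ERRα-/- cells and slightly below it in ERRα+/+ cells. Tax1bp1 rose by a log2 difference of 1.67 ± 0.43 in ERRα-/- cells (adjusted p = 0.00825). The difference was 1.12 ± 0.43 in ERRα+/+ cells (adjusted p = 0.0542), where it was called with slide as a block (adjusted p = 0.0457). Within slide 2 it was 2.33 in ERRα-/- and 1.74 in ERRα+/+ cells, and within slide 1 it was 0.36 in ERRα-/- and -0.12 in ERRα+/+ cells. The responses of the genotypes differed by 0.55 ± 0.61 for Tax1bp1, which was not called (95% interval -0.79 to 1.89). Itch read 2.53, 3.48 and 3.33 in ERRα-/- LPS arrays, against 2.49, 3.40 and 3.44 in ERRα-/- PBS arrays, and 2.61, 3.32 and 3.34 in ERRα+/+ LPS arrays, against 2.78, 3.53 and 3.54 in ERRα+/+ PBS arrays. Its levels differed more by slide than by treatment, although in ERRα+/+ cells each LPS array read below the PBS array of the same number. The LPS difference was 0.00 ± 0.36 (95% interval -0.79 to 0.79) in ERRα-/- and -0.20 ± 0.36 (-0.99 to 0.60) in ERRα+/+ cells. With slide as a block the standard error was 0.09, and the ERRα+/+ difference was still not called (adjusted p = 0.0841).

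**Figure D2:**
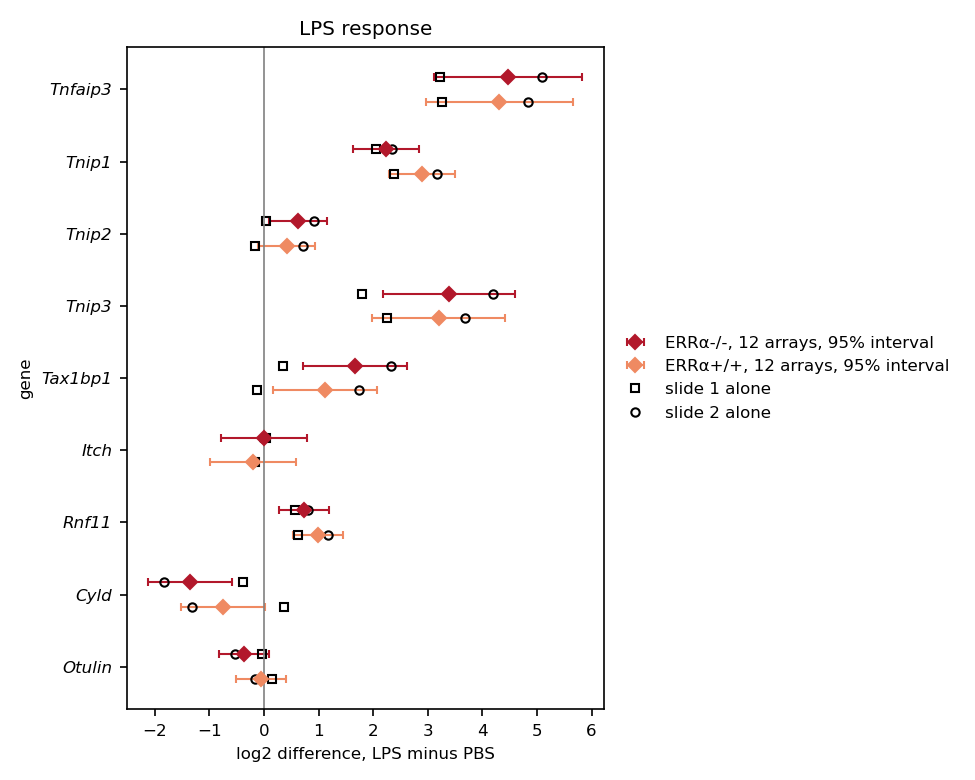
Log2 difference of LPS minus PBS (x axis) for each member (y axis) in ERRα-/- cells, drawn above, and ERRα+/+ cells, drawn below, as diamonds with the 95% interval of the 12-array fit, and as open squares and circles within slide 1 and slide 2. Tnfaip3 stood at 4.47 and Tnip3 at 3.39 in ERRα-/- cells, and the slide 1 squares of both lay below the slide 2 circles.

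The separate deubiquitinases did not follow A20. The main Cyld probe read 0.93, 0.23 and 0.15 in ERRα-/- LPS arrays, against 1.31, 2.02 and 2.03 in ERRα-/- PBS arrays, and 1.46, 0.77 and 0.71 in ERRα+/+ LPS arrays, against 1.09, 2.10 and 2.00 in ERRα+/+ PBS arrays. LPS arrays lay below PBS arrays in ERRα-/- cells, and the groups overlapped in ERRα+/+ cells through slide 1. By this probe Cyld fell by a log2 difference of 1.35 ± 0.35 in ERRα-/- cells (adjusted p = 0.00805), and the difference was -0.75 ± 0.35 in ERRα+/+ cells (adjusted p = 0.0983). In ERRα+/+ cells it was called lower within slide 2 (-1.31, adjusted p = 1.37e-05), with array weights (-1.21, adjusted p = 1.55e-05), while slide 1 gave 0.37. Dropping a single slide 1 array of that genotype also gave the call, at -0.99 (adjusted p = 0.0438) for the LPS array and -1.07 (adjusted p = 0.0258) for the PBS array. The second Cyld probe, designed on another transcript entry, read 0.47, 0.88 and 0.87 in ERRα-/- LPS arrays, against -0.04, 0.37 and 0.64 in ERRα-/- PBS arrays, and gave a difference of 0.42 ± 0.30 (adjusted p = 0.268). In ERRα+/+ cells it read 0.38, 0.82 and 1.08 with LPS, against -0.22, 0.78 and 0.67 with PBS, a difference of 0.35 ± 0.30 (adjusted p = 0.358). With slide as a block the second probe was called higher in ERRα-/- cells (adjusted p = 0.0249), as it was within slide 2 (0.37, adjusted p = 0.0427). The probes thus differed in sign in both genotypes, and their mean was not called in ERRα-/- cells (-0.47, adjusted p = 0.165). Whether they read different transcripts was not tested. The responses of the genotypes on the main Cyld probe differed by -0.60 ± 0.49 (-1.68 to 0.48), which was not called.

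**Figure D3:**
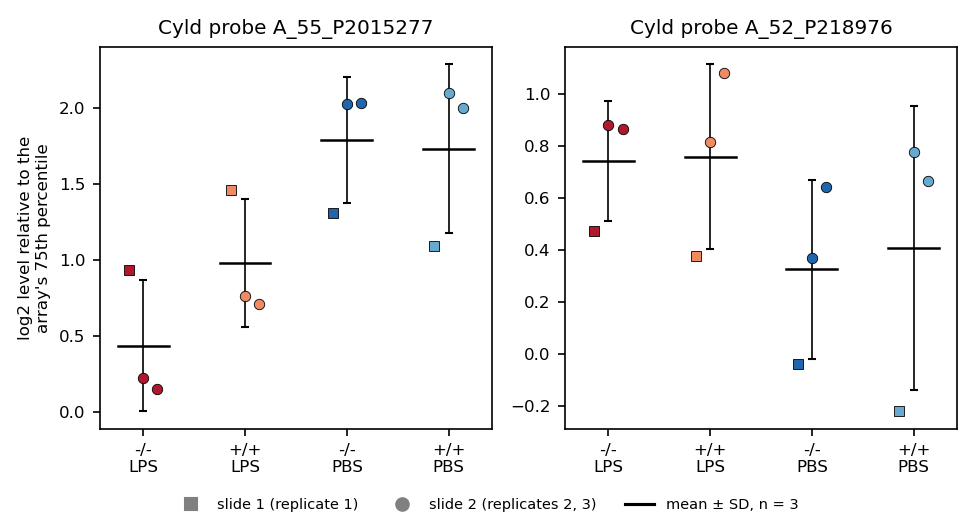
Log2 level (y axis, relative to the array's 75th percentile) of the 2 Cyld probes in the 4 groups, with squares for slide 1, circles for slide 2 and bars for the mean ± SD of 3 arrays. On the left probe the ERRα-/- LPS arrays lay at 0.15 to 0.93, below all ERRα-/- PBS arrays, and on the right probe the same groups overlapped.

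Otulin read 4.28, 3.98 and 3.84 in ERRα-/- LPS arrays, against 4.32, 4.44 and 4.42 in ERRα-/- PBS arrays, and 4.30, 3.67 and 3.76 in ERRα+/+ LPS arrays, against 4.15, 3.67 and 4.09 in ERRα+/+ PBS arrays. The ERRα-/- groups were parted narrowly on slide 1 and the ERRα+/+ groups overlapped. The LPS difference was -0.36 ± 0.21 in ERRα-/- cells (adjusted p = 0.17; called after quantile normalization, where it was -0.74 with an adjusted p of 0.0287, and within slide 2, where it was -0.52 with an adjusted p of 0.0159), and -0.06 ± 0.21 in ERRα+/+ cells (adjusted p = 0.833). With array weights Otulin was called lower in both, at -0.49 in ERRα-/- cells (adjusted p = 0.000213) and at -0.28 in ERRα+/+ cells (adjusted p = 0.0427).

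Slide moved with the size of the LPS response throughout. In 17 of the 18 values, 9 members in 2 genotypes, called or not, the response was smaller in size on slide 1 than on slide 2. The exception was Itch in ERRα-/- cells (0.04 on slide 1 and -0.02 on slide 2). In ERRα+/+ cells the slides also differed in sign for Tnip2 (-0.17 on slide 1 and 0.71 on slide 2) and Tax1bp1 (-0.12 and 1.74). The same held there for Cyld (0.37 and -1.31) and Otulin (0.15 and -0.16). Among all genes called for LPS it was smaller on slide 1 for 84.6% in ERRα-/- and 83.8% in ERRα+/+ cells, with a median ratio of slide 1 to slide 2 of 0.633 in ERRα-/- and 0.614 in ERRα+/+ cells. The labels give slide 1 another array format than slide 2, but all files hold the same design. The part of slide, scan or culture in the smaller response was not tested.

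No member was called between the genotypes, and the mean of Tnfaip3 was no lower in ERRα-/- cells in either treatment. Under LPS, 0 of 9 members were called, where 0.13% of all genes were called, and none had an unadjusted p under 0.05, where 6.24% of all genes did. Under PBS, 0 of 9 were called, where 0.427% of all genes were called, and 1 (Tnip1) had an unadjusted p under 0.05, where 6.59% of all genes did. Averaged over both treatments, 0 of 9 were called, where 1.36% of all genes were. For the LPS response of ERRα-/- minus that of ERRα+/+ cells, 0 of 9 members and 0% of all genes were called, with no member at an unadjusted p under 0.05, where 2.24% of all genes were. With slide as a block 0 of 9 members were called in each of these 4 comparisons, where 1.62% of all genes were called under LPS, 2.11% under PBS, 4.96% on average over both treatments and 0% for the response; 2 members then had an unadjusted p under 0.05 under PBS, where 13.3% of all genes did, and 1 on average, where 19.1% did. All differences are ERRα-/- minus ERRα+/+. Esrra itself was called under PBS by the fit without slide (-3.58 ± 0.51, adjusted p = 0.0227). Under LPS that fit did not call Esrra (-2.11 ± 0.51, adjusted p = 0.202), although its genotypes lay wholly apart. A missing call under LPS can thus go with a large difference.

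The Tnfaip3 levels printed above overlapped between the genotypes under LPS and under PBS. Each ERRα-/- array nevertheless read above the ERRα+/+ array of the same number in both treatments, an order that the main fit does not use. The log2 difference was 0.31 ± 0.61 under LPS (95% interval -1.04 to 1.66, adjusted p = 0.995) and 0.15 ± 0.61 under PBS (-1.20 to 1.50, adjusted p near 1). The difference of the LPS response was 0.16 ± 0.86 (-1.76 to 2.07), with 0.26 within slide 2 and -0.04 within slide 1. The LPS arrays behind these wide intervals span both slides in each genotype. With slide as a block the adjusted p under LPS was 0.752. Within slide 2 alone, at 2 arrays a group, Tnfaip3 read 8.36 and 8.36 in ERRα-/- LPS arrays, against 7.91 and 7.98 in ERRα+/+ LPS arrays, a difference of 0.42 (adjusted p = 0.024). Within slide 1 the difference under LPS was 0.09, from 1 array a group.

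Other members were also called within slide 2 under LPS. Tnip3 was higher by 0.68 (adjusted p = 0.0218) and Tax1bp1 by 0.39 (adjusted p = 0.0468) in ERRα-/- cells, and Cyld fell by 0.55 (adjusted p = 0.00905). These 4 of 9 members, 3 higher and 1 lower, stand beside 8.14% of all genes called higher and 8.78% lower by that fit. Within slide 1 the same differences were 0.42 for Tnip3, 0.15 for Tax1bp1 and -0.53 for Cyld, with the same signs. The second Tnip3 probe was called within slide 2 (0.84, adjusted p = 0.0262), but the second Cyld probe was not (-0.07, adjusted p = 0.747). Averaged over both treatments within slide 2, Tnfaip3 (0.29, adjusted p = 0.0227), Tnip3 (0.43, adjusted p = 0.0276) and Otulin (0.37, adjusted p = 0.0498) were called higher and Cyld lower (-0.28, adjusted p = 0.0166), beside 9.92% of all genes higher and 10.5% lower.

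Markers of neutrophils, a cell type that marrow cultures can hold, were called between genotypes mainly within slide 2. The 12-array fit called 0 of the 9 neutrophil markers in each of the 4 genotype comparisons. Within slide 2, 7 of the 9 neutrophil markers on the array were lower in ERRα-/- cells under LPS and 8 on average over both treatments, and none was higher. That fit called 8.14% of all genes higher and 8.78% lower under LPS, and 9.92% higher and 10.5% lower on average. On average within slide 2, 4 of 4 mast cell and basophil markers, 3 of 6 lymphocyte markers, 2 of 8 stromal and endothelial markers and 1 of 6 dendritic cell markers were also lower, with none higher, and 4 of 12 macrophage markers were higher, with none lower. The neutrophil markers' summed linear level, in units of the array's 75th percentile, was 321 to 497 in ERRα-/- LPS arrays, against 267 to 536 in ERRα+/+ LPS arrays, and 234 to 288 in ERRα-/- PBS arrays, against 309 to 445 in ERRα+/+ PBS arrays. The part of these cell types in the slide 2 differences of the members was not tested. In such bulk cultures, fewer cells of a type and less RNA per cell cannot be told apart.

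Under PBS, Tnip1 and Otulin were the only members whose genotypes did not overlap, both higher in ERRα-/- cells, where 5.82% of all genes lay above in that way. Tnip1 differed by 0.67 ± 0.27 (95% interval 0.07 to 1.27, adjusted p = 0.625) and its second probe by 0.33 ± 0.22, with overlapping groups. Its lowest value, 4.90, came from ERRα+/+ PBS replicate 2, the array with the most variable repeat spots. Otulin differed by 0.42 ± 0.21 (-0.03 to 0.88, adjusted p = 0.846). With array weights both were called (Tnip1 at 0.63, adjusted p = 0.0343, and Otulin at 0.45, adjusted p = 0.0237), but the share of all genes called by that fit is not given here. Under LPS no member's genotypes lay wholly apart, where 12% of all genes did.

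The intervals of the other members' genotype differences under LPS, from the fit without slide, all held 0. The differences were 0.01 ± 0.27 for Tnip1 (-0.59 to 0.61), 0.05 ± 0.24 for Tnip2 (-0.48 to 0.58), 0.02 ± 0.36 for Itch (-0.77 to 0.81) and -0.09 ± 0.21 for Rnf11 (-0.55 to 0.37). Tnip3 stood at 0.59 ± 0.55 (-0.62 to 1.81), Tax1bp1 at 0.31 ± 0.43 (-0.64 to 1.26), Cyld at -0.54 ± 0.35 (-1.30 to 0.22) and Otulin at 0.12 ± 0.21 (-0.34 to 0.58). Leaving out 1 array moved Tnip3 between 0.043 and 1.23 and Cyld between -0.79 and -0.30, with no call. With array weights Tnip3 (0.70, adjusted p = 0.0142) and Cyld (-0.55, adjusted p = 0.00538) were called, again without the share of all genes called by that fit. A p that misses the threshold does not show that the genotypes express these genes alike.

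**Figure D4:**
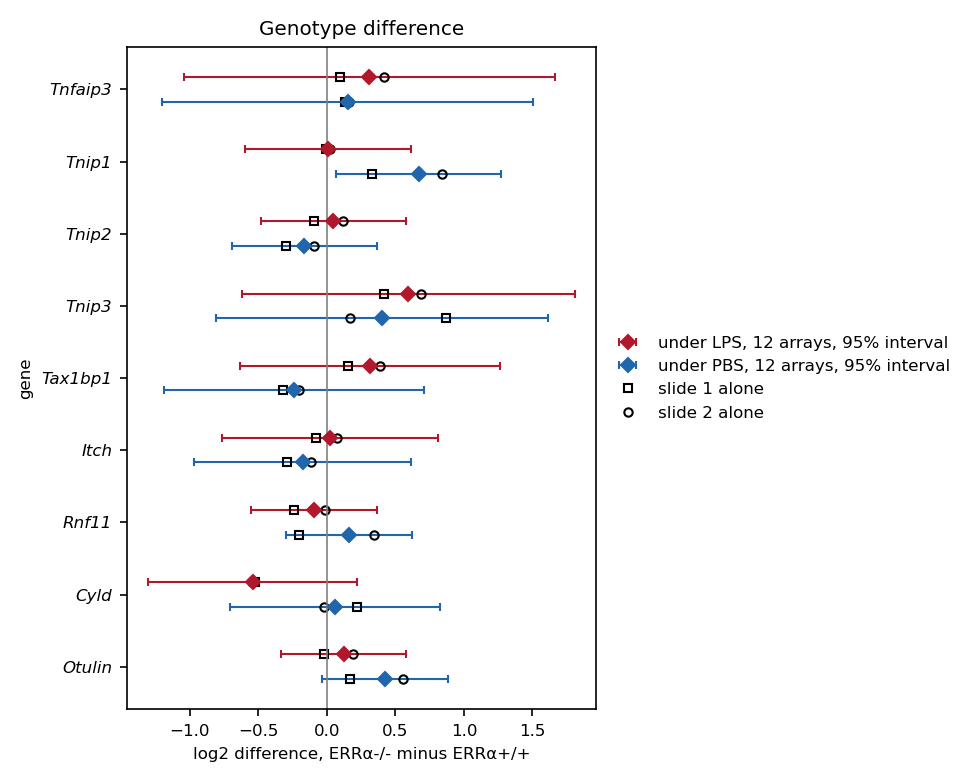
Log2 difference of ERRα-/- minus ERRα+/+ (x axis) for each member (y axis) under LPS, drawn above, and under PBS, drawn below, as diamonds with the 95% interval of the 12-array fit, and as open squares and circles within slide 1 and slide 2. The intervals hold 0 for all members except Tnip1 under PBS (0.07 to 1.27).

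Among the genes around A20 in the same ubiquitin system, the shares called under LPS, both directions pooled, lay near those of all genes for the chain builders and the other deubiquitinases. They were larger for the substrates and kinase complexes. Taken by direction, each of the 3 lists held a larger share called higher and a smaller share called lower than all genes, in both genotypes. None of the 3 lists held a gene called between genotypes in the 12-array fit without slide. With slide as a block 1 gene of the 3 lists (24, 20 and 18 genes tested) was called, lower in ERRα-/- cells on average over both treatments. That fit called 4.96% of all genes in the same comparison. The gene was Ikbkg, the ubiquitin-reading subunit of the IKK complex (-0.43, adjusted p = 0.0372), named after its values were seen. On average within slide 2, 4 chain builders were higher and 1 lower, 2 substrate genes higher and 2 lower, and 4 other deubiquitinases higher and 1 lower, beside the shares of all genes given above for that fit. The list of chain builders at the TNF receptor and TLR complexes held 24 genes, adaptors such as Traf1 among them. Of these genes, 11 rose and 1 fell in ERRα-/- cells, and 10 rose and 1 fell in ERRα+/+ cells. Traf1, an adaptor of TNF receptor family complexes, rose by 6.03 on the log2 scale in ERRα-/- and 6.67 in ERRα+/+ cells, Peli1, a ligase below TLRs, by 3.85 in ERRα-/- and 3.54 in ERRα+/+ cells, and Birc3, encoding cIAP2, by 2.56 in ERRα-/- and 2.89 in ERRα+/+ cells. Peli2, a relative of Peli1, fell by 3.48 in ERRα-/- and 3.03 in ERRα+/+ cells. The median of the list was 0.51 in ERRα-/- and 0.49 in ERRα+/+ cells.

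Of 20 genes for A20 substrates and ubiquitin-reading kinase complexes, 14 rose and 3 fell in ERRα-/- cells, and 12 rose and 2 fell in ERRα+/+ cells, with a median of 1.08 in ERRα-/- and 0.94 in ERRα+/+ cells. The largest rises were those of Malt1, the paracaspase that can cleave A20 (4.06 in ERRα-/- and 3.60 in ERRα+/+ cells), Ripk2, the kinase of NOD receptors (3.28 in ERRα-/- and 3.54 in ERRα+/+ cells), and Tank, a TBK1 adaptor (2.91 in ERRα-/- and 2.66 in ERRα+/+ cells). Tab1, a partner of the kinase TAK1, fell by 1.51 in ERRα-/- and 1.32 in ERRα+/+ cells, and Card9, an adaptor of C-type lectin receptors, fell by 1.14 in ERRα-/- and 1.05 in ERRα+/+ cells. Irak1, a kinase of the TLR pathway, fell by 0.64 in ERRα-/- cells (adjusted p = 0.0482).

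Of 18 other deubiquitinases tested, 8 rose and 1 fell in each genotype, with a median of 0.49 in ERRα-/- and 0.54 in ERRα+/+ cells. Usp18, which removes the ubiquitin-like ISG15, rose by 4.80 in ERRα-/- and 5.33 in ERRα+/+ cells, Usp25 by 2.50 in ERRα-/- and 2.37 in ERRα+/+ cells, and Vcpip1 by 1.53 in ERRα-/- and 1.31 in ERRα+/+ cells. Usp2 fell by 2.58 in ERRα-/- and 2.35 in ERRα+/+ cells. Among ERRα and its partners, 2 of 4 genes tested rose in each genotype: Esrra and the coactivator Ppargc1b, with Ppargc1b up by 1.44 in ERRα-/- and 2.23 in ERRα+/+ cells.

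**Figure D5:**
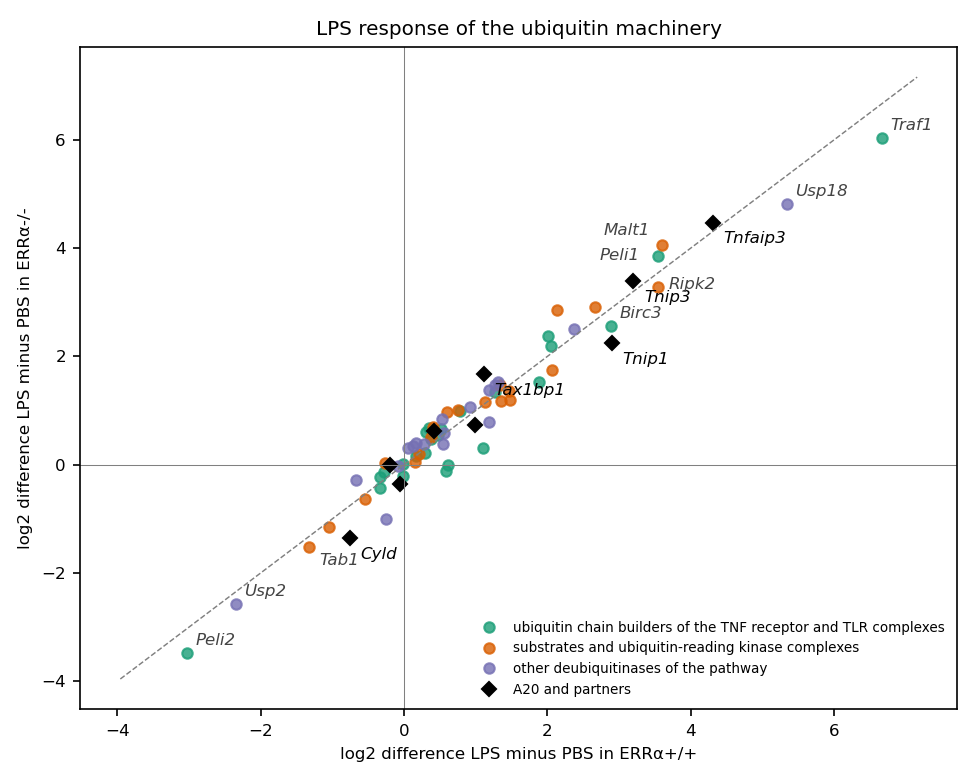
Log2 difference of LPS minus PBS in ERRα-/- cells (y axis) against ERRα+/+ cells (x axis) for A20 and its partners (black diamonds) and for the 3 lists of ubiquitin genes (circles), with a dashed line of equal values. Traf1 stood highest at 6.03 in ERRα-/- and 6.67 in ERRα+/+ cells, and Peli2 lowest.

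The genes whose level followed Tnfaip3 most closely over the 12 arrays were Cobll1, Kpna3, Larp1, Zcchc2 and Pard6g, with a Pearson r of 0.997 to 0.999 each. The arrays share treatment and slide, which alone part them into clusters, so r describes these arrays only. Tnip3 ranked 107 among all other genes by this measure (r = 0.989), Tnip1 758 (0.966), Rnf11 958 (0.959), Tax1bp1 1882 (0.912) and Tnip2 2633 (0.857). Itch (0.11), Otulin (-0.51) and Cyld (-0.85) had the lowest values of the members. After subtracting the mean of each treatment on each slide, the closest genes were Vma21, Vim, Vcpip1, Prl3b1 and AI837181, with an r of 0.967 to 0.985, and Tnip3 (0.83) was the member with the highest value.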

How the data were processed

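Total RNA was labelled with Cy3 and hybridised to 12 one-colour Agilent arrays of 62976 spots, 4 groups of 3, with groups taken from the labels. The deposited intensity values were background-subtracted and detrended processed signals made with Feature Extraction 11.5.1.1, per the file headers, although 9.3.2.1 is the version in the submitters' processing notes. The authors' deposited matrix equalled these intensities. The files also gave, per the file headers, the median intensity of spot and background and 0 or 1 flags for signal above background, saturation and outlier spots. The labels give replicate 1 a smaller array format than the others, but all files hold the same design.

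Control spots and outlier spots were left out, spots of a probe were averaged, and the array's 75th percentile was subtracted on the log2 scale. Probes well above background throughout any of the groups (3 arrays) were kept, and a gene's kept probe with the highest mean stood for it. Accessions were named through RefSeq (27509 of 55681 probes, 20887 genes). Limma 3.58.1 in R 4.3.3 (data.table, version 1.17.8) fitted 1 mean per group, with Benjamini-Hochberg adjustment over 13116 genes; all adjusted p-values are limma's. The fit was tested on simulated data. Precision is limited by the number of arrays. Gene coordinates are not printed because the array design is on mm9; promoter windows are on GRCm38.p6.

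The members and lists were chosen with earlier results of these data known. Named were every member and probe, Esrra, up to 3 called genes with the largest difference in each direction per list, and the 5 genes most like Tnfaip3. Same-numbered arrays deviated together (r of 0.143 to 0.783 for the 3 replicate numbers, against a median of -0.26 between numbers). Deviations were taken from the mean of each group, which by construction lowers r between numbers where same-numbered arrays deviate together. The main fit, its standard errors and its calls did not use the numbers as pairs. The numbers entered only as a block in an alternative. Arrays numbered 2 and 3, which share slide 2, also deviated together (r of 0.129 to 0.554), so pairing and slide cannot be told apart; replicate 1 carries no number in its label. Alternatives were quantile normalization, normexp background (on the median signal, since no mean signal was in the files), dim-probe filters, probe choice, slide and replicate blocks, single slides, array weights, a variance trend, the authors' values and leaving out each array.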

Additional observations from a re-analysis of the deposited data

How the results depend on the processing

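Calls of Tnfaip3, Tnip1 and Tnip3 under LPS held in both genotypes under every alternative with a test, the leave-one-out fits included. The authors' values equalled the intensities of the main fit, so that alternative could not change a call. No called member changed direction in those, where a member was followed by its brightest probe or the mean of its probes. The second Cyld probe was not followed there, and in ERRα-/- cells its LPS difference had the opposite sign (0.42). Values are log2 differences; the cause of each change below was not tested. Quantile normalization, which moved the median LPS response of all genes to -0.15 in ERRα-/- and -0.14 in ERRα+/+ cells, against 0.05 in ERRα-/- and 0.02 in ERRα+/+ cells in the main scaling, turned Itch under LPS in ERRα-/- cells (-0.24) and the genotype differences under LPS of Tnip1 (-0.15), Tnip2 (-0.0121) and Itch (-0.025). Normexp background turned Itch in ERRα-/- (-0.059) and Otulin in ERRα+/+ cells (0.087) under LPS, the genotype differences of Rnf11 (-0.17) and Tnip2 (0.060) under PBS and of Tnip1 under LPS (-0.025), and the difference of response of Tnfaip3 (-0.081) and Tnip2 (-0.059). The mean of a gene's probes turned Cyld under PBS (-0.0119). Each of these values was uncalled in both settings.

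Within slide 2, 7 members were called for LPS in ERRα+/+ cells, but the share of all genes called there for LPS is not given here. That fit called 4 members between genotypes under LPS and 4 on average, beside the shares of all genes given above. Tnfaip3 was among them (0.42 under LPS, 0.29 on average). Itch for LPS in ERRα-/- cells (-0.016) and Cyld between genotypes under PBS (-0.021) turned sign uncalled. Array weights gave 8 members called for LPS in ERRα+/+ cells, 2 between genotypes under LPS, 2 under PBS and 3 on average. The shares of all genes called with array weights are not given here. Neither these counts nor the array-weight calls above can therefore be set against them. The replicate numbers as a block gave 7 members called for LPS in ERRα-/- and 4 in ERRα+/+ cells and 0 in the genotype comparisons, and changed no member's call. The shares of all genes called with that block are not given either.

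Leaving out 1 array at a time gave 5 to 7 members called in ERRα-/- and 4 to 6 in ERRα+/+ cells, and 0 in each genotype comparison. Shares of all genes called in these fits are not given here. The range spanned 0 for Tnfaip3 between genotypes under LPS (-0.32 to 1.04), on average (-0.082 to 0.60) and in its response (-0.47 to 0.89). It did so under LPS between genotypes for Tnip1 (-0.18 to 0.21), Tnip2 (-0.14 to 0.30), Tax1bp1 (-0.061 to 0.76), Itch (-0.22 to 0.31), Rnf11 (-0.22 to 0.11) and Otulin (-0.0023 to 0.32), and under PBS for Tax1bp1 (-0.45 to 0.0053), Itch (-0.43 to 0.13) and Cyld (-0.26 to 0.30). For LPS it did so for Itch in ERRα-/- (-0.31 to 0.29) and ERRα+/+ cells (-0.45 to 0.045) and Otulin in ERRα+/+ cells (-0.26 to 0.060).

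Chosen after seeing the data, slide as a block without the noisy ERRα+/+ PBS replicates 2 and 3 turned 7 uncalled values: Tnip2 (-0.067) and Cyld (0.054) for LPS in ERRα+/+ cells, Tnfaip3 (-0.63), Tnip3 (-0.13) and Rnf11 (-0.25) between genotypes under PBS, and Tnfaip3 (-0.16) and Cyld (0.16) on average. Its ERRα+/+ PBS group is 1 array.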
